A study of Mus musculus with 10 samples.

Results

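The genes described here carry proteins into the endoplasmic reticulum (ER), add their N-linked glycans and move them on to the Golgi. The list holds 50 genes, and 49 of them had at least 1 array row that names no other gene, out of 22180 genes measured in that way. Its members were chosen by function with earlier results of the same genotype comparison known, and each gene with several rows was represented by the row with the highest mean level over the 10 arrays. The levels that selected the rows are therefore given as a description. Counts over the members are set beside the same counts over all rows where these were made, with no test of the list. The remaining gene, Srp54a, which encodes the signal-binding subunit of the signal recognition particle, was measured only on rows shared with Srp54b and Srp54c. Its 2 shared rows differed by 0.02 (SE 0.04, limma adjusted p = 0.866) and 0.0039 (adjusted p = 0.98) on the log2 scale.

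The samples were 5 livers of macroH2A1 macroH2A2 double knockout mice and 5 livers of wild-type mice. MacroH2A proteins are variants of histone H2A with a large extra domain. All mice were males of strain 129/S6 (taconic), aged 2 months, kept on low fat chow and fasted for about 16 h, and total RNA of whole liver was hybridised to 1 Affymetrix array per sample. The labels do not tell how the alleles were made, nor do they say in so many words that each sample is a separate animal. The p-values therefore set each group difference against the spread between these samples within groups, which may not be a spread between animals. In RNA of whole liver, fewer cells of a type and less RNA per cell cannot be told apart.

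Proteins bound for secretion are recognised by their signal sequence while still on the ribosome. The signal recognition particle brings the ribosome to its receptor on the ER, and the chain passes through the Sec61 channel, where signal peptidase removes the signal and oligosaccharyltransferase transfers a preassembled glycan to asparagine. Correctly folded cargo leaves in COPII vesicles, while COPI vesicles and KDEL receptors bring escaped ER proteins back. Hepatocytes depend heavily on this route, since they secrete albumin, clotting factors and lipoproteins into the blood. When unfolded proteins build up in the ER, the unfolded protein response raises the transcription of many genes of the pathway through promoter elements such as the ER stress response element.

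Levels are log2 expression values as deposited, and every difference is double knockout minus wild type on that scale. A row was called at a limma p under 0.05 after Benjamini-Hochberg adjustment over the 25335 rows with a gene symbol. The precision is limited by the 5 arrays per group, and array medians lay between 6.43 and 6.46. The row of Macroh2a1 fell to 9.11 ± 0.07 in double knockout livers, against 9.60 ± 0.07 in wild-type livers (SD, n = 5 each, limma adjusted p = 0.00128). Macroh2a2 averaged 6.12 ± 0.19 in double knockout and 6.32 ± 0.28 in wild-type livers (SD, n = 5 each, limma adjusted p = 0.514), both below the 95th percentile of olfactory receptor rows, 6.54. Where either probe set lies relative to the deleted part is not given, so these values check the labels only in part.

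Arrays differed in markers of other cells. The mean level of 12 pancreatic acinar markers was 8.57, 8.80, 6.03, 6.74 and 6.19 in double knockout arrays 1 to 5, against 6.11, 6.16, 6.04, 9.82 and 10.95 in wild-type arrays 1 to 5. Acinar marker levels thus stood high in 4 arrays, 2 of each group, and 2 of the 12 markers had a difference above 0. All 15 Kupffer cell and macrophage markers had a difference above 0 and 2 of them, Cd163 and Marco, were called; their mean ranged from 8.90 to 9.20 in double knockout arrays and from 8.65 to 8.94 in wild-type arrays. Of 9 plasma cell and B cell markers 1 was above 0, with means of 6.20 to 6.36 in double knockout and 6.32 to 6.50 in wild-type arrays. The mean of 11 hepatocyte markers ranged from 12.56 to 12.65 in double knockout and from 12.57 to 12.71 in wild-type arrays, and 3 of the 11 differences were above 0. For endothelial cells 6 of 8 markers were above 0, with means of 10.03 to 10.17 in double knockout and 10.02 to 10.10 in wild-type arrays. For cholangiocytes 4 of 5 were above 0, with means of 6.61 to 6.93 in double knockout and 6.66 to 7.06 in wild-type arrays.

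Across the pathway, 3 of the 49 genes were called higher in double knockout livers and 0 were called lower. They were Slc35b1, an ER nucleotide transporter, Ostc, a subunit of oligosaccharyltransferase, and Atp2a2, the ER calcium pump, with rises of 1.35-fold, 1.25-fold and 1.23-fold. Over all rows tested, 0.884% were called, 0.332% higher and 0.553% lower. Of the 49 genes, 35 had a difference above 0 and 14 below, with a median of 0.048, while 48.5% of all rows were above 0 with a median of -0.003. At an unadjusted p under 0.05, 13 members were higher and 0 lower, against 7.52% of all rows higher and 7.6% lower.

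All 5 double knockout arrays lay above all 5 wild-type arrays for 8 members, and 0 members had the reverse order, while 1.75% of all rows had every double knockout array on top. The median of the 49 genes, each taken relative to its wild-type mean, lay between 0.047 and 0.057 in every double knockout array, against -0.021 to 0.012 in the wild-type arrays. Wild-type arrays lie around 0 by this construction, and such medians per array were not made over all rows. The highest of the 10 arrays was a double knockout array for 38 genes, and the lowest was a wild-type array for 31. These 2 counts were not made over all rows, so how far they are particular to the members is not known. The 46 members not called had differences of -0.08 to 0.21, and their 95% intervals reached from -0.27 to 0.36.

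**Figure D1:**
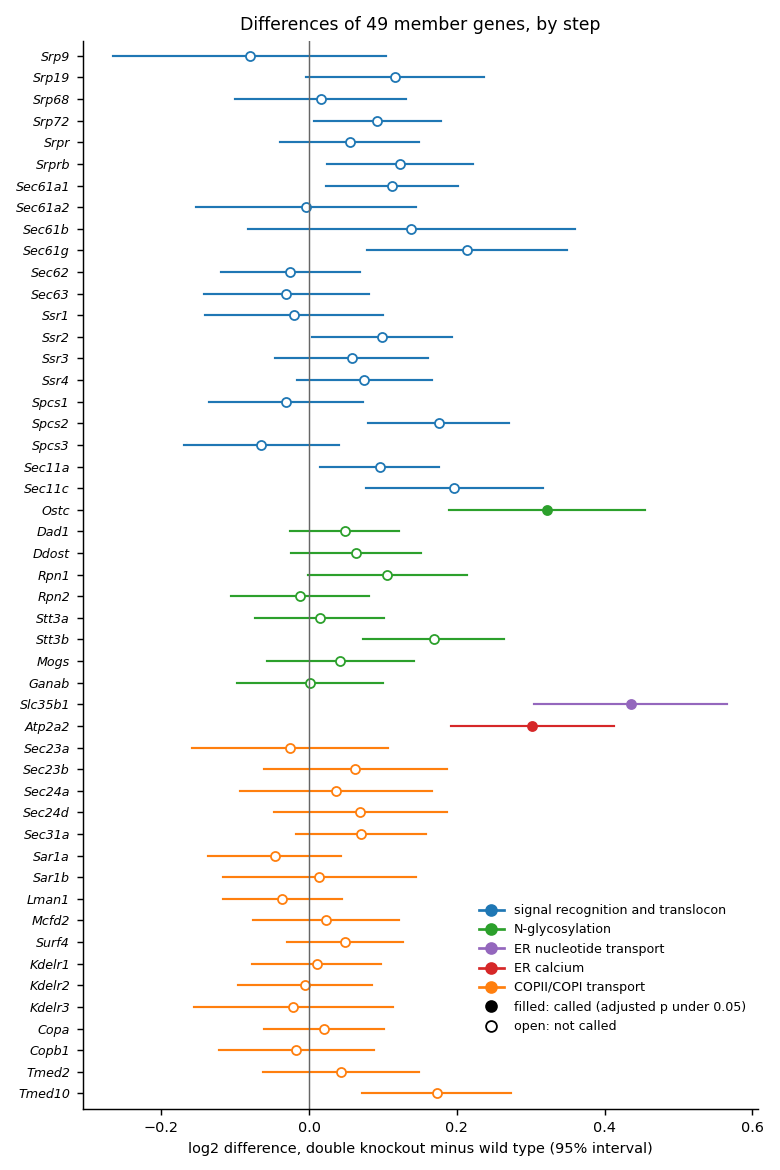
Log2 difference, double knockout minus wild type, of the 49 member genes with 95% intervals from the limma fit (n = 5 arrays per group), coloured by step. Filled points mark the 3 called genes, Ostc, Slc35b1 and Atp2a2, and the other 46 lie between -0.08 and 0.21.

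**Figure D2:**
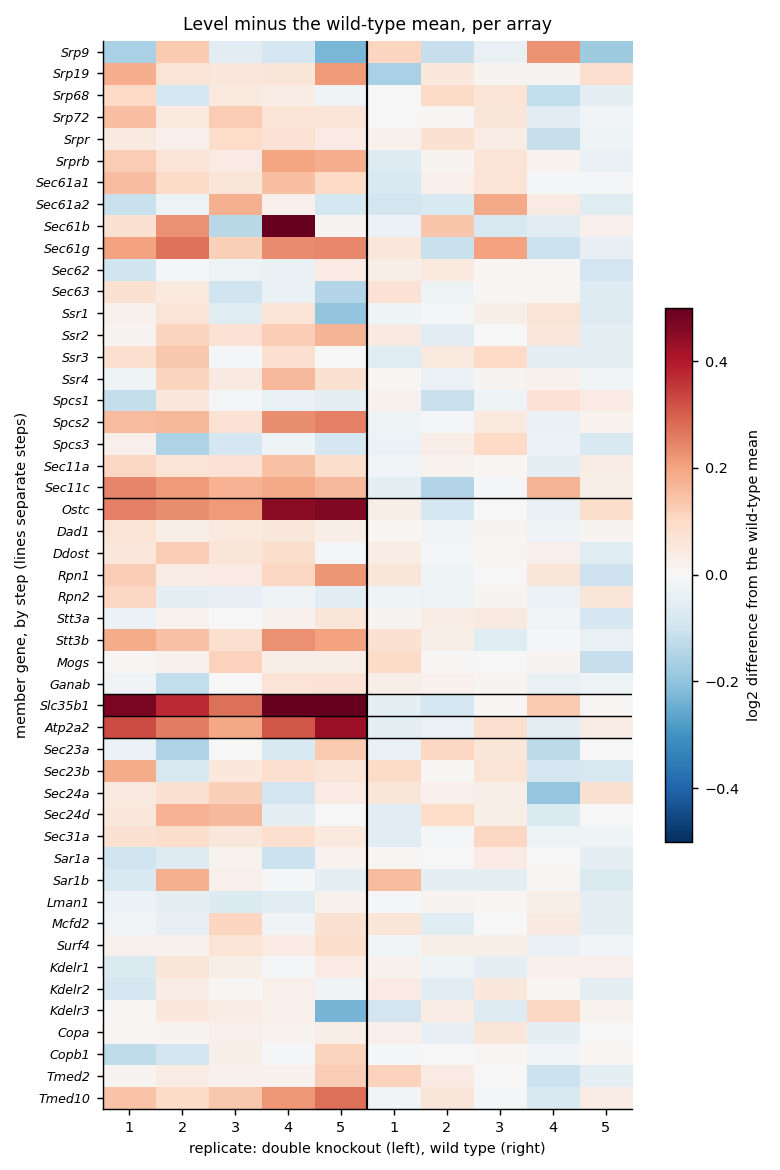
Level of each member gene on each array minus its wild-type mean (log2, colour scale from -0.5 to 0.5), double knockout arrays at left and wild-type arrays at right. Slc35b1, Ostc and Atp2a2 have the largest mean differences. Other rows, Spcs2 and Stt3b among them, also lie above the wild-type mean in all 5 double knockout arrays, with smaller mean differences.

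Slc35b1 showed the largest difference among the 49 genes. Its product is the ER membrane transporter that, in human cells, exchanges ATP for ADP and so fuels the chaperones of the lumen. Levels were 10.53, 10.43, 10.34, 10.61 and 10.57 in double knockout livers, against 10.01, 9.97, 10.07, 10.19 and 10.07 in wild-type livers. The lowest double knockout array, replicate 3, lay above the highest wild-type array, replicate 4. The difference was 0.44 (SE 0.06, limma adjusted p = 0.00733), and it stayed called whichever single array was left out, with adjusted p up to 0.0276.

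Atp2a2 encodes SERCA2, the pump that returns calcium to the ER lumen, where lectin chaperones need it. Its levels were 12.21, 12.14, 12.07, 12.19 and 12.31 in double knockout livers and 11.83, 11.85, 11.97, 11.84 and 11.92 in wild-type livers. The groups did not overlap, and the wild-type array closest to the double knockout arrays was replicate 3. The difference was 0.30 (SE 0.05, limma adjusted p = 0.0216). The call was lost without wild-type replicate 2 (adjusted p = 0.0637) or double knockout replicate 4 (adjusted p = 0.0619).

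Ostc encodes the small subunit that joins the STT3A form of oligosaccharyltransferase to the translocon. Double knockout livers had 10.45, 10.43, 10.41, 10.65 and 10.66, against 10.23, 10.11, 10.20, 10.16 and 10.29 in wild-type livers. Double knockout replicates 4 and 5 were the highest, and the other 3 double knockout arrays still lay above every wild-type array. The difference was 0.32 (SE 0.06, limma adjusted p = 0.0354). Leaving out wild-type replicates 1, 2, 3 or 4 or double knockout replicates 4 or 5 ended the call, with adjusted p between 0.0501 and 0.103.

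The 3 differences were also computed without the 4 arrays of high acinar markers, which left 3 arrays a group. They were 0.49 for Slc35b1 (limma adjusted p = 0.0723), 0.39 for Ostc (adjusted p = 0.128) and 0.31 for Atp2a2 (adjusted p = 0.170), so the sizes were no smaller and none was called. With the mean of the acinar markers as a covariate they were 0.44, 0.32 and 0.30, and all 3 stayed called. With the mean of the macrophage markers as covariate the limma differences were 0.39 for Slc35b1 (SE 0.09, adjusted p = 0.208), 0.37 for Ostc (SE 0.10, adjusted p = 0.230) and 0.35 for Atp2a2 (SE 0.08, adjusted p = 0.181). In that fit 12 rows were called in all. The SEs were larger than in the main fit. This marker mean itself went with genotype, at 9.02 in double knockout and 8.77 in wild-type arrays. Whether macrophage content plays a part was not tested.

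**Figure D3:**
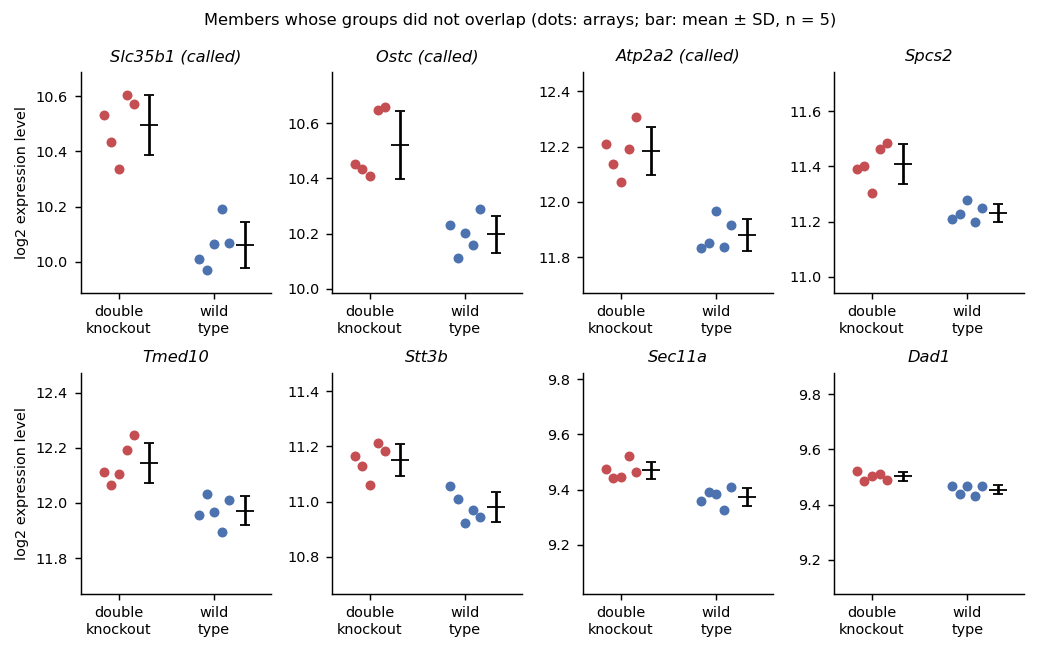
Log2 level on each array of the 8 member genes whose groups did not overlap, double knockout in red at left and wild type in blue at right, with mean ± SD beside the points (n = 5 each) and the same axis length in each panel. The difference between the means runs from 0.44 for Slc35b1 to 0.05 for Dad1.

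Targeting and translocation covered 21 measured genes. None was called, 14 had a difference above 0, the range was -0.08 to 0.21 and the median 0.07. For 2 of the 21, Spcs2 and Sec11a, every double knockout array lay above every wild-type array, an order that 1.75% of all rows had.

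Within the signal recognition particle and its receptor, 5 of 6 genes were above 0 and 0 were called. Srprb encodes the membrane-anchored GTPase subunit of the receptor. Its levels were 9.62, 9.56, 9.53, 9.69 and 9.67 in double knockout livers, against 9.43, 9.50, 9.56, 9.51 and 9.46 in wild-type livers, with a difference of 0.12 (SE 0.05, limma adjusted p = 0.222). Wild-type replicate 3 lay above double knockout replicate 3, and the other wild-type arrays lay below every double knockout array. A further row shared by Srprb and the transferrin gene Trf had a difference of -0.09 (limma adjusted p = 0.354). Srp72, a large subunit that binds the particle's RNA together with Srp68, had 11.62, 11.52, 11.59, 11.53 and 11.53 in double knockout livers, against 11.47, 11.47, 11.53, 11.41 and 11.45 in wild-type livers. Wild-type replicate 3 reached the lower double knockout arrays, and the difference was 0.09 (SE 0.04, limma adjusted p = 0.294). The differences of the others were 0.12 for Srp19, which helps assemble the particle, 0.06 for the receptor subunit Srpr, 0.02 for Srp68 and -0.08 for Srp9, of the domain that slows elongation.

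For the Sec61 channel and its partners, 3 of 6 genes were above 0. Sec61g, a small subunit that clamps the channel, stood at 9.38, 9.45, 9.30, 9.41 and 9.42 in double knockout livers, against 9.24, 9.06, 9.38, 9.07 and 9.14 in wild-type livers. Wild-type replicate 3 overlapped the double knockout arrays and the other 4 wild-type arrays lay below them. The difference was 0.21 (SE 0.06, limma adjusted p = 0.135). Sec61g also lies on a row shared with 4 predicted genes, where the difference was 0.0044 (limma adjusted p = 0.982). The pore subunit Sec61a1 had 12.36, 12.31, 12.27, 12.36 and 12.31 in double knockout livers, against 12.13, 12.24, 12.28, 12.20 and 12.21 in wild-type livers. Only wild-type replicate 3 reached into the double knockout range, and the difference was 0.11 (SE 0.04, limma adjusted p = 0.219). Its paralogue Sec61a2 had a difference of -0.0045 (SE 0.07), and whether the paralogues differ from each other was not tested. Sec61b, the tail-anchored subunit, differed by 0.14 (SE 0.10), with double knockout replicate 4 highest of the 10 arrays at 7.36. Sec62 and Sec63, which serve chains that enter after translation, had differences of -0.03 each.

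The translocon-associated protein complex assists the entry of some signal sequences. Its gene Ssr2 had 12.57, 12.67, 12.63, 12.68 and 12.73 in double knockout livers, against 12.61, 12.51, 12.56, 12.62 and 12.51 in wild-type livers, a difference of 0.10 (SE 0.04, limma adjusted p = 0.313). The groups overlapped through double knockout replicate 1. Ssr4 had 11.18, 11.31, 11.25, 11.37 and 11.28 in double knockout livers, against 11.21, 11.17, 11.22, 11.22 and 11.19 in wild-type livers, with a difference of 0.07 (SE 0.04, limma adjusted p = 0.445). Here too double knockout replicate 1 was the array that overlapped. The differences of the remaining subunits were 0.06 for Ssr3 and -0.02 for Ssr1.

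Signal peptidase cuts the signal sequence off as the chain emerges. Its accessory subunit Spcs2 had 11.39, 11.40, 11.30, 11.46 and 11.48 in double knockout livers, against 11.21, 11.23, 11.28, 11.20 and 11.25 in wild-type livers. The groups did not overlap, although double knockout replicate 3 and wild-type replicate 3 were close. The difference was 0.18 (SE 0.04, limma adjusted p = 0.0848), the lowest adjusted p among members that were not called, and the gene's other row gave 0.23 (adjusted p = 0.0767) without overlap. The catalytic subunit Sec11c had 8.45, 8.42, 8.38, 8.40 and 8.37 in double knockout livers, against 8.16, 8.06, 8.20, 8.38 and 8.24 in wild-type livers, a difference of 0.20 (SE 0.05, limma adjusted p = 0.12). Wild-type replicate 4 alone lay within the double knockout range. The alternative catalytic subunit Sec11a differed by 0.10 without overlap (limma adjusted p = 0.244), while Spcs1 differed by -0.03 and Spcs3, needed for catalysis, by -0.06.

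N-glycosylation covered 9 genes, of which 8 were above 0, 1 was called (Ostc) and the median was 0.05. Stt3b is the catalytic subunit of the oligosaccharyltransferase form that reaches sites missed during translocation. Its levels were 11.17, 11.13, 11.06, 11.21 and 11.18 in double knockout livers, against 11.06, 11.01, 10.92, 10.97 and 10.95 in wild-type livers. Double knockout replicate 3 and wild-type replicate 1 almost touched, and the rest were apart. The difference was 0.17 (SE 0.04, limma adjusted p = 0.1), beside 0.01 (SE 0.04, adjusted p = 0.913) for its paralogue Stt3a, the catalytic subunit of the form that Ostc belongs to. The difference between the paralogues was not tested.

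The shared subunits of oligosaccharyltransferase had differences of 0.11 for Rpn1, 0.06 for Ddost, 0.05 for Dad1 and -0.01 for Rpn2. The Dad1 arrays did not overlap, at 9.48 to 9.52 in double knockout and 9.43 to 9.47 in wild-type livers, but its 95% interval was -0.03 to 0.12. The glucosidases trim the new glycan for the lectin chaperones. Mogs, glucosidase I, had 7.88, 7.90, 7.99, 7.91 and 7.91 in double knockout livers, against 7.97, 7.88, 7.88, 7.89 and 7.76 in wild-type livers, a difference of 0.04 (SE 0.05, limma adjusted p = 0.731). Ganab, the catalytic subunit of glucosidase II, had 10.49, 10.39, 10.51, 10.58 and 10.58 in double knockout livers, against 10.54, 10.53, 10.52, 10.47 and 10.48 in wild-type livers. Both pairs of groups overlapped widely, and the difference of Ganab was 0.0009 (SE 0.05, limma adjusted p = 0.996).

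COPII and COPI transport covered 17 genes, of which 0 were called, 11 were above 0 and the median was 0.02. For 1 of the 17, Tmed10, every double knockout array lay above every wild-type array, beside 1.75% of all rows. Among the 7 COPII genes differences ran from -0.05 to 0.07 with 95% intervals between -0.16 and 0.19. Sec31a, of the outer coat, had 11.41, 11.42, 11.39, 11.41 and 11.38 in double knockout livers, against 11.28, 11.33, 11.44, 11.30 and 11.31 in wild-type livers. Wild-type replicate 3 was the highest of the 10 arrays and the other wild-type arrays were the lowest, with a difference of 0.07 (SE 0.04, limma adjusted p = 0.454). Sec24d, an inner coat subunit that selects cargo, had 10.61, 10.73, 10.72, 10.51 and 10.56 in double knockout livers, against 10.50, 10.65, 10.59, 10.49 and 10.55 in wild-type livers. The groups overlapped, with a difference of 0.07 (SE 0.05, limma adjusted p = 0.601). The other inner coat genes differed by 0.06 (Sec23b), 0.04 (Sec24a) and -0.03 (Sec23a), and the GTPases that start coat assembly by 0.01 (Sar1b) and -0.05 (Sar1a).

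Cargo receptors showed small differences. Surf4, which carries lipoproteins and other soluble cargo out of the ER, had 12.12, 12.12, 12.16, 12.14 and 12.19 in double knockout livers, against 12.09, 12.13, 12.13, 12.07 and 12.08 in wild-type livers, a difference of 0.05 (SE 0.04, limma adjusted p = 0.589). Lman1 and Mcfd2 form the receptor for clotting factors V and VIII. Lman1 had 11.80, 11.78, 11.76, 11.78 and 11.86 in double knockout livers, against 11.82, 11.85, 11.84, 11.86 and 11.79 in wild-type livers, a difference of -0.04 (SE 0.04, limma adjusted p = 0.713). Both Surf4 and Lman1 overlapped between the groups, and Mcfd2 differed by 0.02.

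The KDEL receptors retrieve escaped ER chaperones from the Golgi. Kdelr3 had 6.57, 6.61, 6.60, 6.59 and 6.33 in double knockout livers, against 6.47, 6.60, 6.49, 6.66 and 6.58 in wild-type livers, a difference of -0.02 (SE 0.06, limma adjusted p = 0.918). Its mean was near the olfactory receptor percentile of 6.54, and the groups overlapped. Kdelr1 had 8.61, 8.75, 8.72, 8.68 and 8.73 in double knockout livers, against 8.71, 8.66, 8.64, 8.71 and 8.71 in wild-type livers. The groups overlapped, with a difference of 0.01 (SE 0.04, limma adjusted p = 0.941), and Kdelr2 differed by -0.0057.

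Among COPI and p24 genes, Tmed10, a p24 cargo adaptor, had 12.11, 12.07, 12.11, 12.19 and 12.25 in double knockout livers, against 11.96, 12.03, 11.97, 11.90 and 12.01 in wild-type livers. The groups did not overlap, and the difference was 0.17 (SE 0.05, limma adjusted p = 0.109). Its other 2 rows differed by 0.23 and 0.08, both with overlap. Tmed2, which forms complexes with Tmed10, had 10.51, 10.53, 10.52, 10.52 and 10.62 in double knockout livers, against 10.61, 10.54, 10.50, 10.39 and 10.45 in wild-type livers, a difference of 0.04 (SE 0.05, limma adjusted p = 0.746). The groups overlapped, and the second Tmed2 row had the opposite sign at -0.05. The COPI coat genes Copa and Copb1 differed by 0.02 and -0.02.

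A further list held 160 other genes of the same pathway, of which 154 were measured. This list too was written with earlier results of these data known, so its counts are a description. Of the measured genes 88 had a difference above 0 and 66 below, with a median of 0.02. Of the 154, 3 were called higher and 1 lower, beside 0.332% of all rows higher and 0.553% lower. The called genes that rose were Hspa5, Dnajb11 and Calr, which are also chaperones of ER folding. Hspa5 encodes BiP, the HSP70 of the lumen, which also pulls chains through the channel. It had 10.33, 10.10, 10.08, 10.27 and 10.49 in double knockout livers, against 9.57, 9.58, 9.84, 9.60 and 9.79 in wild-type livers. The groups did not overlap, and the difference was 0.58 (SE 0.09, limma adjusted p = 0.0104).

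Dnajb11, a co-chaperone of BiP, had 9.94, 9.80, 9.73, 9.95 and 9.86 in double knockout livers, against 9.41, 9.38, 9.51, 9.46 and 9.38 in wild-type livers. Every double knockout array was higher than every wild-type array, with a difference of 0.42 (SE 0.05, limma adjusted p = 0.00444). Calr, the calcium-binding lectin calreticulin, had 12.42, 12.38, 12.34, 12.47 and 12.44 in double knockout livers, against 12.10, 12.12, 12.19, 12.17 and 12.08 in wild-type livers. The groups were apart again, with a difference of 0.28 (SE 0.04, limma adjusted p = 0.0117). Ugp2, which makes UDP-glucose, fell to 10.62, 10.59, 10.51, 10.50 and 10.62 in double knockout livers, against 11.04, 10.79, 10.83, 11.16 and 10.83 in wild-type livers. The groups did not overlap, and the difference was -0.36 (SE 0.07, limma adjusted p = 0.041), a call that was lost in 9 of 10 fits that each left out 1 array. Without the 4 arrays of high acinar markers the limma differences were 0.62 for Hspa5 (adjusted p = 0.101), 0.41 for Dnajb11 (adjusted p = 0.0934), 0.28 for Calr (adjusted p = 0.132) and -0.34 for Ugp2 (adjusted p = 0.16). With the mean of the macrophage markers as covariate they were 0.68, 0.42, 0.26 and -0.44 (SE 0.13, 0.08, 0.07 and 0.11), with adjusted p from 0.119 to 0.223. With the acinar marker mean as covariate Ugp2 lost its call (difference -0.35, limma adjusted p = 0.0557) and the other 3 genes kept theirs.

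The other lists had 0 genes called. In each, the gene of lowest p was Krtcap2 among the other oligosaccharyltransferase subunits at 0.11 (limma adjusted p = 0.286), Alg6 in lipid-linked oligosaccharide synthesis at -0.30 (adjusted p = 0.11), Tmem38b among ER calcium genes at -0.20 (adjusted p = 0.0868) and Sec24b among other COPII genes at 0.17 (adjusted p = 0.114). For tethering and fusion it was Trappc3 at 0.13 (limma adjusted p = 0.265), and for other COPI, p24 and intermediate compartment genes Tmed7 at 0.14 (adjusted p = 0.104). All 5 other oligosaccharyltransferase subunits were above 0, as were 19 of 23 other targeting and translocation genes. Tethering and fusion had 10 of 21 above 0, and lipid-linked oligosaccharide synthesis 13 of 22. Sugar nucleotide supply had 8 of 16, and glycan trimming and lectin quality control 8 of 16. The other ER calcium genes had 6 of 14, other COPII genes 7 of 12, and other COPI, p24 and intermediate compartment genes 12 of 25.

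**Figure D4:**
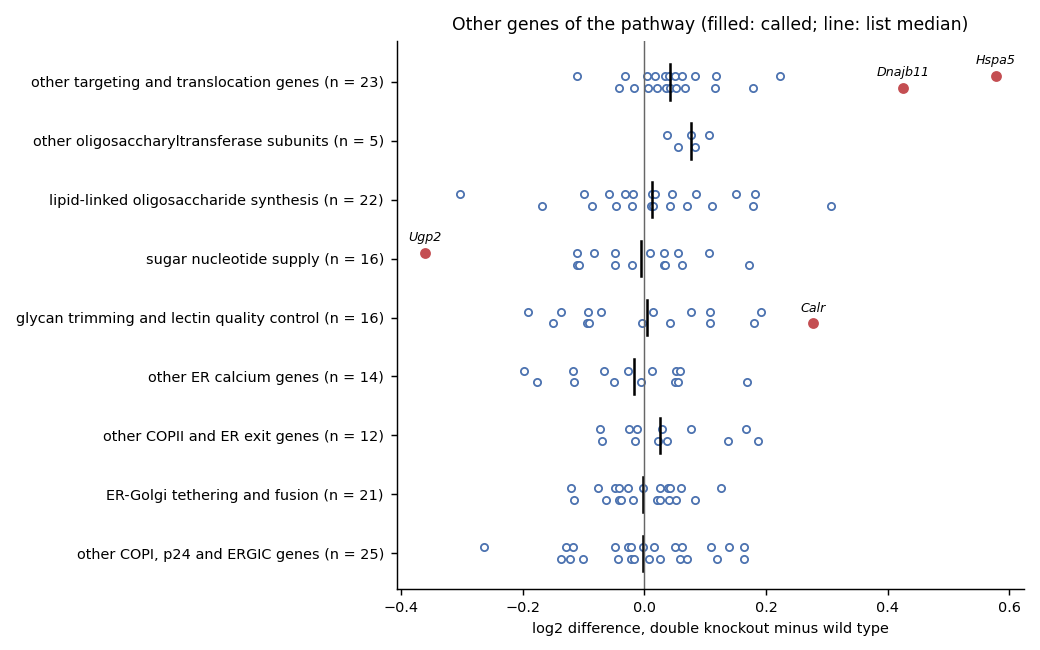
Log2 difference, double knockout minus wild type, of the 154 other genes of the pathway, 1 point per gene in 9 lists, with a line at each list's median. Filled points mark the 4 called genes: Hspa5, Dnajb11 and Calr to the right of 0 and Ugp2 to the left.

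Promoters were read for 39 of the 50 members and 136 of the other genes, from 250 bases before to 50 after the start in RefSeq's table of build GRCm38.p6. The windows of Srp19, Srp68, Sec61a1, Ssr2, Spcs3, Sec11c, Ostc, Atp2a2, Lman1, Kdelr2 and Tmed2 were not used here. Of the called members, only Slc35b1 is therefore among the 39, and the counts below say nothing on Ostc or Atp2a2. The ER stress response element (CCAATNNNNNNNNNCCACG, searched on both strands) is known to bind ATF6 together with NF-Y. It was present in 0 of the 39 members and in 5 of the 136 other genes, against 0.137% of 27025 promoters. Both lists were chosen by function with earlier results known, so these shares are a description and were not tested. The windows of those 5 genes are shown because they include Hspa5 and Calr, which were called; they are written on the gene's strand with the element in capitals and up to 10 bases either side.

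Hspa5 (chr2:34772015-34772053, plus strand, difference 0.58): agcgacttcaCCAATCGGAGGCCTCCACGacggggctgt

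Calr (chr8:84847065-84847103, minus strand, difference 0.28): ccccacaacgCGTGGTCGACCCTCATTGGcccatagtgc

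Canx (chr11:50325790-50325828, minus strand, difference 0.11): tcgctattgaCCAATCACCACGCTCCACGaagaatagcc

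Dnajc3 (chr14:118937817-118937855, plus strand, difference 0.22): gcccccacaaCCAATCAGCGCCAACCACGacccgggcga

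Alg12 (chr15:88819510-88819548, minus strand, difference 0.31): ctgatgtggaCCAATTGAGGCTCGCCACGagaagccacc

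The elements began 65, 162, 145, 105 and 220 bases before the start of Hspa5, Calr, Canx, Dnajc3 and Alg12, and that of Calr lies on the opposite strand. Canx, a lectin chaperone, Dnajc3, a BiP co-chaperone, and Alg12, a mannosyltransferase, were not called (limma adjusted p = 0.204, 0.0831 and 0.113). With 1 mismatch allowed, the element was found in 4 members, Mcfd2, Rpn2, Sec31a and Sec61g, in 10 of the 136 other genes and in 1.72% of all promoters. The second form, ERSE-II (ATTGGNCCACG), was in 0 members and in Dnajb11 and Krtcap2, against 0.0444% of all promoters.

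The core of the unfolded protein response element (TGACGTGG, both strands), known as a site of XBP1 and ATF6, was in 4 of the 39 members, Sec24d, Copb1, Kdelr3 and Sec23a, in 6 of the 136 other genes and in 0.714% of all promoters. It overlaps neither ERSE form in these windows. The 3 members whose match lies before the start are shown, with the core in capitals; that of Sec23a lies after the start.

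Sec24d (chr3:123267460-123267487, plus strand, difference 0.07): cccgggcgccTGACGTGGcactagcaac

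Copb1 (chr7:114254691-114254718, minus strand, difference -0.02): ccgcccccttCCACGTCAgccaaggact

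Kdelr3 (chr15:79516368-79516395, plus strand, difference -0.02): ggccgccccgCCACGTCAccgcgcggcc

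None of these 4 members was called, and their differences ran from -0.03 to 0.07. A match of letters is a description, and its absence says only that the letters are not in that window.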

How the data were processed

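RNA of 5 double knockout and 5 wild-type liver samples was measured on 10 arrays. The values are log2 expression levels per probe set, as deposited by the authors. Per the submitters' processing notes they used Affymetrix Expression Console, and its version, summarisation and normalization are not given in the sources used. Array quartiles lay within 0.046 of each other. Of 41345 rows, 23521 carried 1 gene symbol in the platform annotation, 1814 several and 16010 none.

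The 25335 rows with a symbol were fitted in R 4.3.3 with limma 3.58.1 (lmFit, then plain eBayes; two-sided; group as the only term; 8 residual and 3.96 prior degrees of freedom), with Benjamini-Hochberg adjustment over all of them. The script was tested on simulated data. Members, gene lists and markers were chosen with earlier results of these data known. Every member is named with its difference. Values on all arrays are given for called members and the 2 of lowest p in each functional list, and other pathway genes are named where called or, failing that, of lowest p in their list. Motif-bearing genes Canx, Dnajc3 and Alg12 were named after their values were seen. Replicate numbers were not taken as pairs: the deviations of same-numbered arrays correlated at -0.478 to 0.281. Alternatives were other variance priors, array weights, normalizations, row filters, a replicate block, marker covariates, thresholds and leaving out arrays. Batches could not be examined, since scanner files and array dates were not used here.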

Additional observations from a re-analysis of the deposited data

Results flagged for a closer look

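Among 110 groups of 5 arrays examined, 5 had an array far from the rest, and chance alone gives about 1 in 20. Rpn2 in double knockout replicate 1 was 9.95, with 9.83 as the nearest double knockout array. Mogs in double knockout replicate 3 was 7.99, with the next at 7.91. Tmed2 in double knockout replicate 5 was 10.62, with the next at 10.53, and Kdelr3 in the same array was 6.33, below the next at 6.57. Sec24a in wild-type replicate 4 was 11.21, below the next wild-type array at 11.43. None of the 5 genes was called.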

How the results depend on the processing

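The number of rows called, 224, moved to 377 with rows under the olfactory receptor percentile left out, 75 with every row tested, 68 without the 4 arrays of high acinar markers, 12 with the macrophage marker covariate, 585 at an adjusted p under 0.10 and 45 under 0.01. It ranged from 64 to 253 when single arrays were left out, with 135, 124, 68 and 87 without double knockout replicates 2, 3, 4 and 5 and 64, 144 and 131 without wild-type replicates 2, 3 and 4. The 3 members called became 1 with every row tested and at an adjusted p under 0.01, and 0 without the high acinar marker arrays or with the macrophage covariate. They numbered 1 to 3 without single arrays, with 1 left, Slc35b1, without wild-type replicate 2 or double knockout replicate 4. The members' median difference was 0.0316 without the high acinar marker arrays and 0.0403 to 0.0536 without single arrays. Members whose groups did not overlap numbered 15 without those arrays (14 higher and 1 lower, beside 19% of all rows at 3 arrays a group), and 8 to 13 without single arrays, with 13 without wild-type replicate 3, where 5.33% of all rows did not overlap in either direction (4.86% to 6.5% over these fits, 3.9% with all arrays). The 4 other pathway genes called became 0 without the high acinar marker arrays, 0 with the macrophage covariate, 7 at an adjusted p under 0.10 and 1 under 0.01, and were 3 to 4 without single arrays. With the replicate block, 76 rows, 1 member (Slc35b1) and 2 other pathway genes were called; adjusted p was 0.0764 for Ostc, 0.0827 for Atp2a2, 0.0764 for Calr and 0.106 for Ugp2, and 1 of 5 same-numbered pairs correlated best with its own number. Members with the stress element numbered 4 with 1 mismatch allowed. The cause of these moves was not tested. Leaving out the 4 arrays of high acinar markers changed both the number of arrays and the acinar marker level, which cannot be told apart. In the alternatives run, the 3 called members and 4 called other genes kept their sign, while up to 8 uncalled members changed sign (without the high acinar marker arrays). Trend, robust, weights and both normalizations left 3 members called. The 5 arrays per group and levels near the olfactory receptor percentile, as for Kdelr3, limit what could be detected.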
